A study of Homo sapiens with 4 samples.

Results

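The cytosolic ribosomal protein genes encode the proteins of the large (60S) and small (40S) subunits of the human ribosome. They were followed on the 4 arrays of MDA-MB231, a human breast cancer cell line. A probe set is a handful of short oligonucleotides read as 1 signal. The members were chosen by gene symbol: every probe set whose only listed symbol is that of an RPL, RPS, RPLP or RPSA gene. This gave 94 of 22277 probe sets, which read 56 of the 11963 genes with a probe set of their own, 35 of the large and 21 of the small subunit. Of the 56, 5 are other forms of a ribosomal protein encoded by a second gene (RPL3L, RPL10L, RPL26L1, RPL39L and RPS27L). A further 57 ribosomal probe sets are listed with more than 1 gene and were kept apart, so that 16 genes found only there, among them RPL5, RPL10 and RPS26, are not analysed here as genes.

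The cells carried PIAS1 shRNA2, a short hairpin against the SUMO ligase and transcriptional repressor PIAS1, or a scrambled control shRNA. The hairpins were delivered in lentiviral vectors with a U6 promoter, and stable lines were selected with puromycin. Both lines were cultured for 30 h in SCM, a serum-free stem cell medium of DMEM/F-12 with bovine albumin, EGF, bFGF and insulin, or in DMEM with 10% FBS. Total RNA of each of the 4 combinations was measured on 1 Affymetrix array, so that ratios between conditions carry no replicate error and no p-value. A line here is 1 selected population per hairpin, and line and hairpin cannot be told apart.

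An mRNA for each ribosomal protein has to be made in step with the others, because the subunits take up most of their proteins in equal numbers. In human cells most of these mRNAs begin with a 5′ terminal oligopyrimidine (TOP) tract, a C followed by a run of C and T bases. The kinase mTOR and the RNA-binding protein LARP1 act on the tract to set how much of the mRNA is translated when nutrients or growth factors change. The level of the mRNA itself, which the arrays measured, is known to vary less than its translation.

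Of the 56 genes, 48 matched the RefSeq promoter table of GRCh38.p14, and in 32 of them (66.7%) the annotated start base was a C followed by at least 4 further C or T bases on the gene's own strand. The same start was found for 4.04% of the 27305 promoters of the table and for 4.94% of the 9562 promoters of genes measured here. The median run in these 32 genes was 8 bases and the longest, in RPL39, was 19. An annotated start can lie a few bases or much further from the one used in these cells. A missing run thus says only that the letters are not at this base. The window of RPL26L1, for example, lies well inside the gene, which begins at chr5:172954094, and that of RPL6 lies inside its gene too. The windows below are shown because they set members whose signals stayed level beside the members that moved. Each holds 10 bases before and 20 from the annotated start, 5′ to 3′, with the pyrimidine run in capitals. The first 7 genes have a run and the last 3, all other forms, have none. Most of the 16 matched genes without the run are not other forms, with RPL11, RPL19 and RPL32 among them.
RPS10: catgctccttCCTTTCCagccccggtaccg
RPL37A: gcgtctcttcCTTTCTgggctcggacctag
RPL39: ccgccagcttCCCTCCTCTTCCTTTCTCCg
RPS27: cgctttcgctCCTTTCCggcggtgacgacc
RPS21: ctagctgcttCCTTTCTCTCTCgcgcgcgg
RPL14: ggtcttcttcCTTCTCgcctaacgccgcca
RPLP2: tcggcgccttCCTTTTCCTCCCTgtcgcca
RPS27L: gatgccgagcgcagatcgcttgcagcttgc
RPL26L1: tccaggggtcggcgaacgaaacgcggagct
RPL10L: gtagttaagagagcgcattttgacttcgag
In GRCh38.p14 the windows of RPS10 (chr6:34426050-34426079), RPL39 (chrX:119791611-119791640), RPS27L (chr15:63157458-63157487) and RPL10L (chr14:46651762-46651791) lie on the minus strand. Those of RPL37A (chr2:216498834-216498863), RPS27 (chr1:153990752-153990781), RPS21 (chr20:62387093-62387122), RPL14 (chr3:40457329-40457358), RPLP2 (chr11:809957-809986) and RPL26L1 (chr5:172958719-172958748) lie on the plus strand. RPL39L and RPL3L had no match.

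PIAS1 itself, read on its brightest probe set, had signals of 671 with PIAS1 shRNA2 and 1814 with control shRNA in SCM, and of 512 with PIAS1 shRNA2 and 1383 with control shRNA in DMEM, or 37.0% of control in each medium. Its 2 further probe sets gave 31.5% and 77.9% of control in SCM and 23.8% and 23.1% in DMEM, the last from a signal of 158, under the background level of 198, so the size of the reduction in SCM differed between probe sets. The deposited values are MAS5 signals, array intensities on a linear scale, and the median over all probe sets lay between 569 and 605 on the 4 arrays. For ACTB, the signal at the 3′ end over that at the 5′ end, which tracks RNA integrity, was 1.11 with PIAS1 shRNA2 and 1.07 with control shRNA in SCM, and 0.946 with PIAS1 shRNA2 and 0.982 with control shRNA in DMEM. For GAPDH it was 0.879 and 0.834 in SCM and 0.858 and 0.860 in DMEM, with no order by medium. All 6 genes chosen as high in MDA-MB231, such as VIM and CD44, were above background. Of 6 genes chosen as low in this line, CDH1 and PGR were at background on every array, while GATA3, EPCAM, KRT19 and ESR1 were above it. ESR1 was close to background in DMEM, at 206 with PIAS1 shRNA2 and 216 with control shRNA, and read 357 and 706 in SCM. The paper lists ESR1 among the genes that its arrays showed as strongly induced by PIAS1 knockdown, and it reported the induction by Q-PCR too. By Q-PCR it could not detect ESR1 in control shRNA cells. The signals here are those of 1 probe set of ESR1, its brightest, and in SCM they ran the other way. A signal is read here as relative to the other RNAs on its array, and fewer cells and less RNA per cell cannot be told apart.

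The ribosomal protein genes were among the brightest on every array, and their signals were nearly the same in all 4 conditions. Their median signal was 56759 with PIAS1 shRNA2 and 56934 with control shRNA in SCM, and 57380 with PIAS1 shRNA2 and 54944 with control shRNA in DMEM. The 56 genes together made up 6.37% of the summed signal of all genes with PIAS1 shRNA2 and 6.48% with control shRNA in SCM, and 6.58% with PIAS1 shRNA2 and 6.26% with control shRNA in DMEM. Of them, 50 lay among the 1197 genes of the brightest 10%, and between 41 and 43 at or above the 99th percentile of all genes on each array. Among the 50 brightest genes of an array, 19 were ribosomal protein genes in SCM with either hairpin, 24 in DMEM with PIAS1 shRNA2 and 23 in DMEM with control shRNA. The summed signal of the large-subunit genes was 1.28 to 1.33 times that of the small-subunit genes on the 4 arrays.

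**Figure D1:**
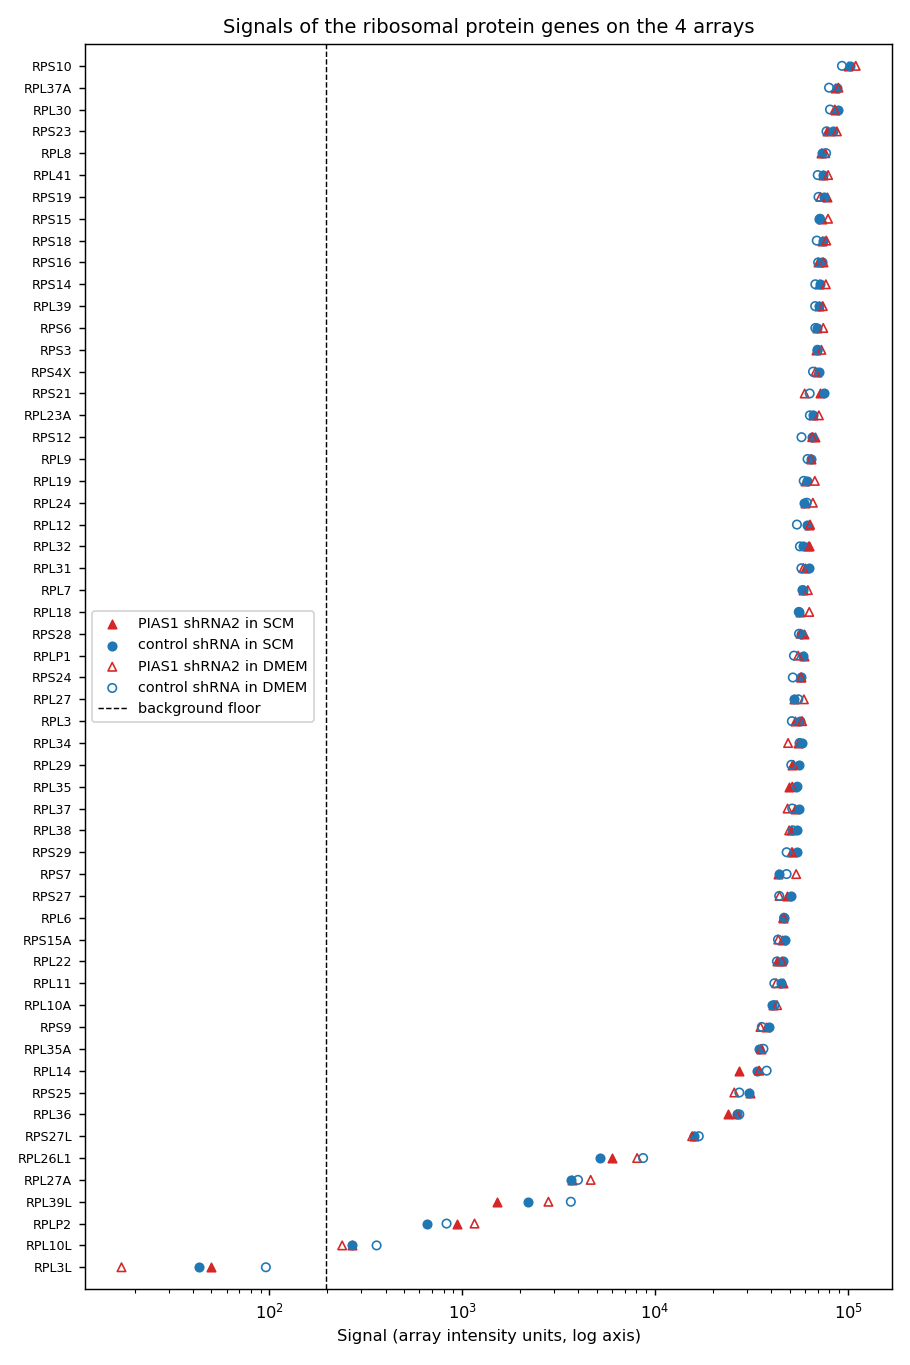
Signal of each of the 56 ribosomal protein genes (rows, ordered by mean signal) on the 4 arrays, on a log axis of array intensity units; triangles are PIAS1 shRNA2, circles control shRNA, filled SCM, open DMEM, and the dashed line marks 198, the level read as background. The points of a gene nearly coincide for the bright genes and spread for RPL26L1, RPL39L, RPLP2 and RPL10L, and RPL3L lies under the floor on every array.

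RPS10, a protein of the head of the small subunit, had the highest signals, 99409 with PIAS1 shRNA2 and 102353 with control shRNA in SCM, and 109607 with PIAS1 shRNA2 and 92995 with control shRNA in DMEM. RPL37A and RPL30 of the large subunit followed, at 79699 to 89144 and at 80610 to 88560 over the 4 arrays. The dimmest were RPL3L, RPL10L and RPLP2. RPL3L, a form of RPL3 used by heart and skeletal muscle, read from 17.1, with PIAS1 shRNA2 in DMEM, to 95.9, with control shRNA in DMEM, and lay between them in SCM. All 4 signals lie under the background floor of 198, the signal below which a probe set was read as background, and RPL3L is the 1 member with no ratio, which leaves 55. A signal depends on the probes, so the order of genes by signal is not an order of RNA amounts.

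In SCM the ribosomal protein genes stood at nearly the same signals with either hairpin. The log2 ratio to control shRNA had a median of -0.01, with the middle 50% of the genes spanning 0.08. Of the 55 genes, 20 were above 0 (50.4% of all genes) and 35 below. A gene was called where its log2 ratio was at least 0.32 in size. By this, 1 gene was called higher, RPLP2, and 1 lower, RPL39L, where 17.8% of all 9165 genes above the floor were called higher and 17.0% lower.

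In DMEM the same median was 0.07, with a middle 50% of 0.18, and 39 of the 55 genes were above 0 (51.6% of all genes). Again 1 gene was called higher, RPLP2, and 2 were called lower, RPL10L and RPL39L, against 15.4% and 12.9% of 8795 genes. The small shift turned with the scaling of the arrays: with a common array median it was 0.02 and 30 genes were above 0, and after quantile normalization it was -0.021 and 20 were above 0. Other genes of the same brightness had it too, as the 140 other genes with a mean log2 signal of at least 15 had a median of 0.06 and the 47 ribosomal protein genes there 0.09. RPS10 (log2 ratio 0.24), RPL12 (0.23) of the ribosomal stalk base and RPL27A (0.22) stood highest after RPLP2, and RPL34 (-0.20) and RPL14 (-0.13) lowest after the called genes. The 3 bright probe sets of RPS10 gave 0.24, 0.16 and 0.21 in DMEM.

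SCM also left the levels close to those in DMEM, although many other genes differed between the media. In PIAS1 shRNA2 cells the median log2 ratio of SCM over DMEM was -0.05, with 20 genes above 0 (49.4% of all genes). None was called higher and 4 were called lower (RPL39L, RPL26L1, RPL14 and RPL27A), against 32.1% and 32.8% of 9139 genes. In control shRNA cells the median was 0.07, with 36 genes above 0 (51.9% of all genes). Here 0 genes were called higher and 4 lower (RPL26L1, RPL39L, RPL10L and RPLP2), against 33.4% and 31.9% of 9015 genes. No ribosomal protein gene reached 2-fold in any of the 4 comparisons. Among all genes this fold was passed upward by 2.14% and downward by 1.37% between hairpins in SCM, by 1.43% and 0.762% in DMEM, for SCM over DMEM by 10.9% and 10.4% in PIAS1 shRNA2 cells and by 10.6% and 10.8% in control shRNA cells. The median in control shRNA cells turned to -0.02 with a common array median and to -0.05 after quantile normalization, and the median in PIAS1 shRNA2 cells stayed below 0 under both, at -0.09 and -0.04. The counts of called genes were the same under both scalings in control shRNA cells, and in PIAS1 shRNA2 cells 6 were lower with a common array median. The end ratio of ACTB was higher in SCM and that of GAPDH was not, as given above, and their part in these values was not tested.

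Between media, the log2 ratios of the ribosomal protein genes spread less than those of other bright genes. The part of signal brightness in this was not tested. The middle 50% of the 55 log2 ratios of SCM over DMEM spanned 0.15 in PIAS1 shRNA2 cells and 0.15 in control shRNA cells, whereas that of the other 1147 genes of the brightest 10% spanned 0.79 and 0.80. For the 140 other genes with a mean log2 signal of at least 15 it was 0.51 and 0.47, and for the 47 ribosomal protein genes of that brightness 0.13 and 0.12. Of the 50 ribosomal protein genes of the brightest 10%, 0 were called higher in SCM in either line, and 1, RPL14, was called lower in PIAS1 shRNA2 cells. Of the other 1147 genes, 29.3% were higher and 28.2% lower in PIAS1 shRNA2 cells, and 29.2% and 28.9% in control shRNA cells. These comparisons between media in the 2 lines share no array, and 557 of the 1147 genes (48.6%) were called the same way in both. For the 50 bright members this count could only be 0, as 0 of them were called in control shRNA cells. Between hairpins the difference in spread was smaller in SCM, with 0.08 for the ribosomal protein genes and 0.25 for the 1147, and in DMEM the values were 0.18 and 0.21. Of the 50 bright members, 0 were called between hairpins in either medium. Of the 1147, 6.36% were higher and 6.80% lower in SCM, and 4.18% and 5.93% in DMEM. Calls were rare too among the 140 other genes of log2 signal 15 or more. Only 1 was higher and 4 lower in SCM, with 1 and 3 for DMEM. The 0 calls of the 47 members are thus close to what genes of like brightness gave. Hairpin ratios of these 140 genes had a middle 50% of 0.13 (SCM) and 0.17 (DMEM), against 0.07 and 0.15 for the 47. With 1 array per condition these spreads are a description of these arrays.

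The error of a single ratio can be gauged only within an array pair, from different probe sets of 1 gene. Over 34 bright probe sets of 14 genes, with a mean signal of at least 10000, the SD within a gene was 0.09 between hairpins in SCM and 0.06 in DMEM, and 0.12 for SCM over DMEM in PIAS1 shRNA2 cells and 0.11 in control shRNA cells. This SD holds none of the spread between cultures or arrays, and dimmer probe sets spread more widely. Between hairpins in SCM, ribosomal probe sets with a mean signal under 10000 had quartiles of -0.53 and 0.20. The bright ones had quartiles of -0.07 and 0.01. In SCM, 4 of the 55 members lay more than 2 such SDs from 0, RPLP2 and RPL26L1 above and RPL39L and RPL14 below. In DMEM 24 did, 20 of them above, which includes the shift that turned with the scaling. Between media there were 8 in PIAS1 shRNA2 cells and 5 in control shRNA cells. Of the members named for SCM, RPLP2, RPL39L and RPL26L1 are dim, with mean signals of 879, 2419 and 6831. The SD of bright probe sets does not gauge their error. Dim members were among those counted in the other comparisons too, and the share of all genes beyond 2 such SDs was not counted.

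RPL39L, a testis-enriched form of RPL39, was the member with the lowest ratio in 2 of the 4 comparisons and lower in all 4. Its signals were 1519 with PIAS1 shRNA2 and 2204 with control shRNA in SCM, and 2796 with PIAS1 shRNA2 and 3654 with control shRNA in DMEM. It was thus lower with PIAS1 shRNA2 in each medium (log2 ratio -0.54 in SCM and -0.39 in DMEM) and lower in SCM with each hairpin (-0.88 in PIAS1 shRNA2 cells and -0.73 in control shRNA cells). All 4 values stayed past the threshold under both other scalings. The gene has 1 probe set and its signals lie above every floor tried, so the other alternatives could not change them. RPL39, the main form, which lines the tunnel through which the new protein leaves the ribosome, read 70758 with PIAS1 shRNA2 and 70807 with control shRNA in SCM, and 73988 with PIAS1 shRNA2 and 67527 with control shRNA in DMEM, ratios of -0.00 and 0.13. RPL39L is at chr3:187120948-187139496 and RPL39 at chrX:119786504-119791630.

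RPL26L1, a near-identical form of RPL26, moved with the medium. It read 6000 with PIAS1 shRNA2 and 5199 with control shRNA in SCM, and 8064 with PIAS1 shRNA2 and 8660 with control shRNA in DMEM, so that both SCM signals lay under both DMEM signals. The log2 ratio of SCM over DMEM was -0.43 in PIAS1 shRNA2 cells and -0.74 in control shRNA cells, and that between hairpins 0.21 in SCM and -0.10 in DMEM. RPL26 itself was not analysed here.

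RPL10L, which takes the place of RPL10 in the male germ line, was close to background. Its signals were 268 with PIAS1 shRNA2 and 269 with control shRNA in SCM, and 238 with PIAS1 shRNA2 and 360 with control shRNA in DMEM, so the control shRNA array in DMEM stood alone above the rest. Its ratios of -0.59 in DMEM between hairpins and -0.42 between media in control shRNA cells were 0 with the floor at the highest array median of 605. RPS27L, a form of RPS27 that p53 can induce, was level at 15907 with PIAS1 shRNA2 and 15892 with control shRNA in SCM, and 15556 with PIAS1 shRNA2 and 16832 with control shRNA in DMEM. The main form RPS27 read 48266 with PIAS1 shRNA2 and 50508 with control shRNA in SCM, and 44107 with PIAS1 shRNA2 and 43957 with control shRNA in DMEM. Its ratio of SCM over DMEM in control shRNA cells, 0.20, was the next highest after RPS21.

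RPLP2 was the 1 member called higher with PIAS1 shRNA2, in both media, but on a dim probe set. RPLP1 and RPLP2 are the acidic proteins of the stalk that recruits elongation factors. RPLP2 read 945 with PIAS1 shRNA2 and 657 with control shRNA in SCM, and 1158 with PIAS1 shRNA2 and 829 with control shRNA in DMEM, log2 ratios of 0.52 and 0.48. A probe set listed for RPLP2 together with 1 further gene was far brighter, at 51552 with PIAS1 shRNA2 and 49252 with control shRNA in SCM, and 50676 with PIAS1 shRNA2 and 53373 with control shRNA in DMEM, and its ratios were 0.07 and -0.07. The partner RPLP1 had ratios of 0.03 in SCM and 0.07 in DMEM at signals of 52437 to 59431. RPL27A was alike: its own probe set was at 3653 to 4631, with ratios of SCM over DMEM of -0.32 in PIAS1 shRNA2 cells and -0.12 in control shRNA cells. A probe set shared with 1 further gene, at 71853 to 82377, gave 0.12 and 0.14.

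RPL14, of the large subunit, had the lowest ratio of the 50 bright members in 3 of the 4 comparisons, and RPL34 was lower in DMEM between hairpins. It read 27241 with PIAS1 shRNA2 and 33615 with control shRNA in SCM, and 34607 with PIAS1 shRNA2 and 37839 with control shRNA in DMEM. The array of PIAS1 shRNA2 in SCM was the lowest of the 4, with a log2 ratio of -0.30 to control shRNA in SCM and of -0.35 to PIAS1 shRNA2 in DMEM. Another bright probe set of RPL14, at 29400 to 32113, gave 0.01 and -0.06 for the same pairs. The probe sets of RPL14 thus differed by 0.31 in the hairpin ratio in SCM, the widest range of the 14 genes with several bright probe sets.

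RPS25 and RPS21, both of the small subunit, had the highest ratios of SCM over DMEM in PIAS1 shRNA2 cells. In control shRNA cells RPS21 was again the highest, and RPS25 stood behind RPS27, RPS12 and RPS29. RPS21 read 71339 with PIAS1 shRNA2 and 74645 with control shRNA in SCM, and 59586 with PIAS1 shRNA2 and 63263 with control shRNA in DMEM, so both SCM signals were above both DMEM signals. Its ratios were 0.26 in PIAS1 shRNA2 cells and 0.24 in control shRNA cells. RPS25, a protein of the head that viral internal ribosome entry sites need, read 30900 with PIAS1 shRNA2 and 30798 with control shRNA in SCM, and 25712 with PIAS1 shRNA2 and 27317 with control shRNA in DMEM, with ratios of 0.27 and 0.17. A second, dim probe set of RPS21 ran the other way, at -0.87 in PIAS1 shRNA2 cells and -0.47 in control shRNA cells.

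**Figure D2:**
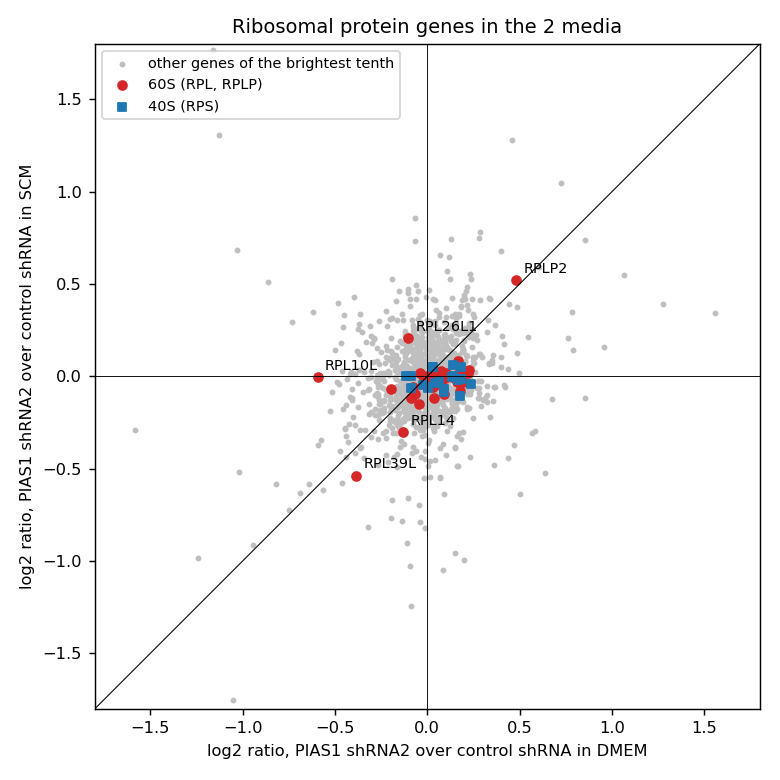
log2 ratio between hairpins (PIAS1 shRNA2 over control) in SCM (vertical) against that in DMEM (horizontal); red circles are 60S genes, blue squares 40S genes, grey points the other genes of the brightest 10%, and the diagonal marks equal ratios. Most ribosomal protein genes lie in a flat cluster near 0 in SCM that reaches to 0.24 in DMEM, with RPLP2 at 0.52 and 0.48 and RPL39L at -0.54 and -0.39 near the diagonal.

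Grouped by subunit and by role, the genes gave much the same picture. Without the other forms, the 31 large-subunit genes had median hairpin ratios of -0.01 in SCM and 0.08 in DMEM on the log2 scale, and the 20 small-subunit genes -0.03 and 0.09. For SCM over DMEM the large-subunit genes had -0.06 in PIAS1 shRNA2 cells and 0.06 in control shRNA cells, and the small-subunit genes 0.00 and 0.11. The 7 genes around the exit tunnel, such as RPL19, RPL31 and RPL35, had medians of -0.06 in SCM and 0.09 in DMEM between hairpins. The 4 genes along the mRNA path and decoding site (RPS3, RPS15, RPS23 and RPS28) had 0.01 and 0.10. For SCM over DMEM in control shRNA cells, the 7 genes of the head of the small subunit were all above 0, from 0.07 to 0.18. Of all 20 small-subunit genes 17 were above 0 there. After quantile normalization RPS16, RPS18 and RPS19 of the head were below 0. In PIAS1 shRNA2 cells 4 of the 7 and 11 of the 20 were above 0. RPL11, which with RPL5 and 5S rRNA can bind the p53 ligase MDM2, had 0.04 in SCM and 0.03 in DMEM between hairpins. The 13 genes mutated in Diamond-Blackfan anemia, an inherited failure of red cell production, held 0 calls in any comparison. All 13 are among the 50 bright members, of which RPL14 was the 1 gene called in any comparison, so the count is that of bright members at large. All these medians are under 0.12 in size and are given for the signals as deposited only. The medians of all members in DMEM and in control shRNA cells moved with the scaling, as given above.

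The start run made little difference to the ratios. The 32 genes with the run had medians of -0.03 in SCM and 0.09 in DMEM between hairpins, and the 16 genes without it -0.01 and 0.05. For SCM over DMEM the values were -0.06 and -0.02 in PIAS1 shRNA2 cells, and 0.09 and 0.01 in control shRNA cells, with the genes with the run given ahead of those without it.

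The hairpin ratio was lower in SCM than in DMEM for 42 of the 55 genes, with a median difference of -0.10, where 50.5% of all genes and 50.7% of the other genes of the brightest 10% were lower. The difference was 0.59 for RPL10L and 0.31 for RPL26L1, and -0.28 for RPS23 and RPS10. Of the 140 other genes with a mean log2 signal of at least 15, 98 (70.0%) were lower as well, with a median of -0.06. With a common array median 36 ribosomal protein genes were lower, and after quantile normalization 22, with a median of 0.02, so the direction depended on the scaling. The difference was not tested, as each condition has 1 array.

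Bright and dim probe sets of the same genes did not read alike. Of the 94 probe sets, 70 had a mean signal of at least 10000, and 0 of these were called between hairpins in either medium, 3 were lower in SCM in PIAS1 shRNA2 cells and 1 was higher in SCM in control shRNA cells. Only 16 of the 24 dimmer ones could be called between hairpins in SCM, with 6 lower and 1 higher with PIAS1 shRNA2. For DMEM the number was 18, with 5 lower and 4 higher. Neither signal of the remaining dim ones passed the floor. The share called among all probe sets of like brightness was not counted. The 45 bright probe sets listed with further genes had medians of -0.02 in SCM and 0.08 in DMEM between hairpins, and of -0.06 in PIAS1 shRNA2 cells and 0.06 in control shRNA cells between media. Genes with a pair of probe sets over 0.5 apart in a log2 ratio were RPL18, RPL31, RPS28 and RPS21, in each case through a probe set with a mean signal of at most 3512.

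**Figure D3:**
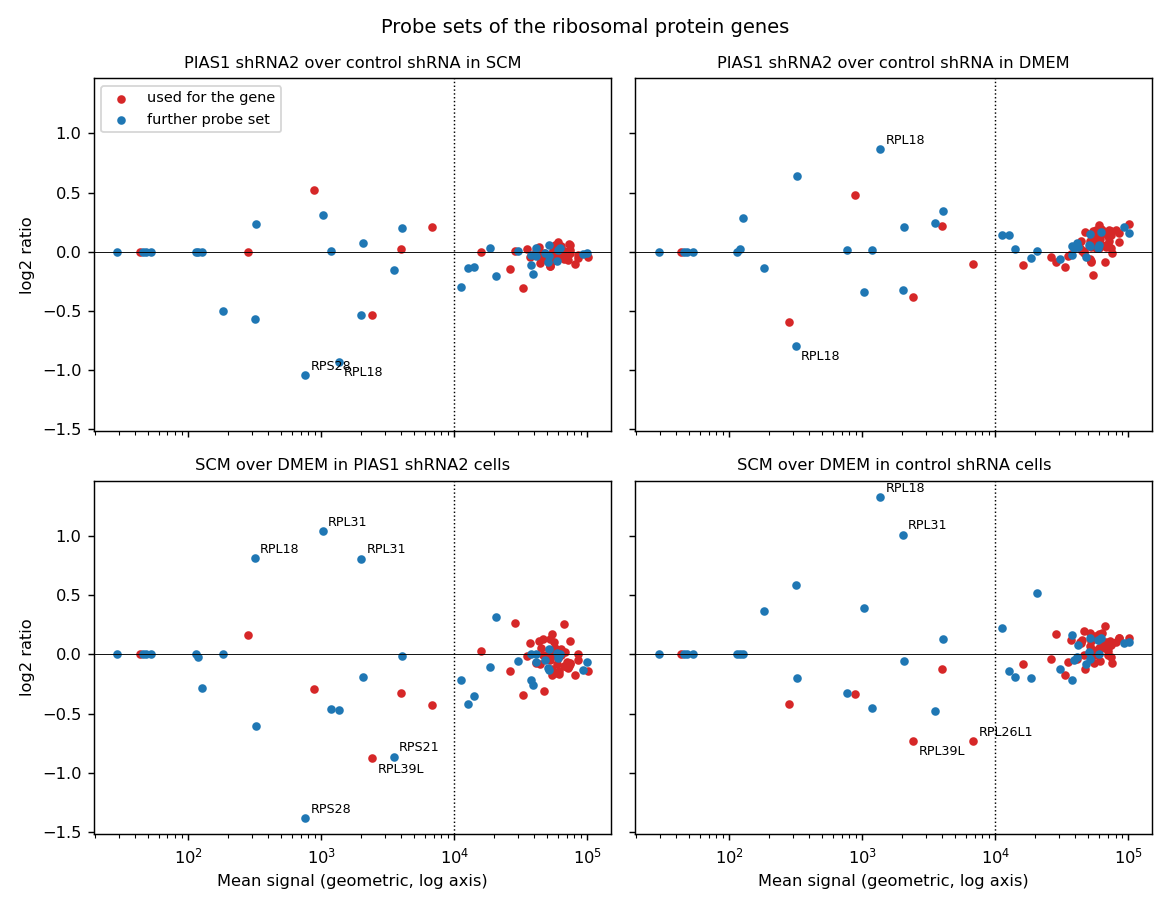
log2 ratio of each of the 94 probe sets against its mean signal on a log axis, 1 panel per comparison; red points are the probe set used for the gene, blue points the further ones, and the dotted line marks a signal of 10000. Right of the line the points gather near 0, and most ratios beyond 0.5 lie left of it.

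Translation factors that share the TOP start had medians near those of the ribosomal protein genes, but single genes among them moved. Of 20 listed translation factors and other genes known for TOP mRNAs, 15 were measured, and all 10 with a promoter in the table had the start run. Their median log2 ratio of SCM over DMEM was -0.06 in PIAS1 shRNA2 cells and 0.07 in control shRNA cells, close to the ribosomal protein genes. Between hairpins it was -0.01 in SCM and 0.14 in DMEM, where 14 of 15 were above 0. For SCM over DMEM, EEF1D (0.34) was called higher and EIF3F (-0.35) lower in PIAS1 shRNA2 cells, and in control shRNA cells 3 were called higher, HNRNPA1 (1.05), EIF4B (0.55) and TPT1 (0.33), and 0 lower. Between hairpins HNRNPA1, an RNA-binding protein of the splicing machinery, was called lower in SCM (-0.34) and, with EIF4B, higher in DMEM (0.58 and 0.33). The shares of all genes called in these comparisons are those given for the ribosomal protein genes. EEF1A1, the elongation factor that brings tRNA to the ribosome, read 91045 with PIAS1 shRNA2 and 89255 with control shRNA in SCM, and 94669 with PIAS1 shRNA2 and 82014 with control shRNA in DMEM.

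A further list holds chaperones and assembly factors of ribosomal proteins and the ubiquitin ligases MDM2 and HUWE1. Of its 10 measured genes, 6 were called lower and 0 higher in SCM in PIAS1 shRNA2 cells, and 5 lower and 0 higher in control shRNA cells, with medians of -0.64 and -0.55. The ligases were not among them, with ratios of 0.14 and -0.17 for MDM2, which was near the floor, and 0.12 and 0.22 for HUWE1. The share called lower among all genes is given above, at 32.8% and 31.9%. RRS1, which helps to place the 5S particle, read 1708 with PIAS1 shRNA2 and 680 with control shRNA in SCM, and 5454 with PIAS1 shRNA2 and 4711 with control shRNA in DMEM. GRWD1, a chaperone of RPL3, read 712 with PIAS1 shRNA2 and 342 with control shRNA in SCM, and 2084 with PIAS1 shRNA2 and 2095 with control shRNA in DMEM. Both were thus lower in SCM with each hairpin, with log2 ratios of SCM over DMEM for RRS1 of -1.68 in PIAS1 shRNA2 cells and -2.79 in control shRNA cells, and for GRWD1 of -1.55 and -2.62. In SCM they were higher with PIAS1 shRNA2, with log2 ratios of 1.33 and 1.06. BCCIP, a chaperone of RPL23, and BRIX1, a large-subunit assembly factor, had ratios of SCM over DMEM of -1.36 and -1.63 in PIAS1 shRNA2 cells and -1.62 and -1.20 in control shRNA cells. The client of GRWD1, RPL3, had -0.12 and 0.13. NACA and NAP1L1 stand in both this list and that of the translation factors.

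Of 13 measured genes of the mTOR pathway and its TOP effectors, 7 were lower and 4 higher in SCM in PIAS1 shRNA2 cells and 8 lower and 3 higher in control shRNA cells. Among all genes 32.8% were called lower and 32.1% higher in PIAS1 shRNA2 cells, and 31.9% and 33.4% in control shRNA cells. LARP1, the TOP-binding protein, had log2 ratios of SCM over DMEM of -0.94 in PIAS1 shRNA2 cells and -0.76 in control shRNA cells, and EIF4E, the cap-binding protein, -0.74 and -0.87. DDIT4, an inhibitor of mTOR, was higher in SCM, at 1.32 and 1.21. Between hairpins the list had medians of -0.15 in SCM and -0.02 in DMEM. The arrays measure mRNA only, so translation of the ribosomal protein mRNAs in the 2 media is not known from these data.

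**Figure D4:**
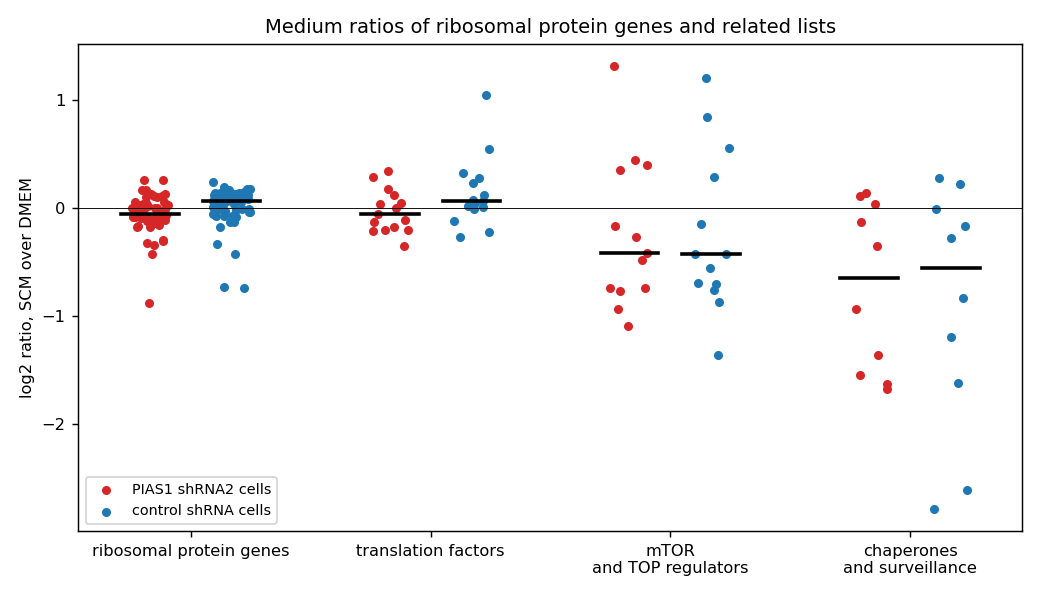
log2 ratio of SCM over DMEM for the ribosomal protein genes and for 3 related lists, with PIAS1 shRNA2 cells in red left of control shRNA cells in blue and the median of each as a bar. Most ribosomal protein genes lie around 0, as does the median of the translation factors, of which HNRNPA1 reaches 1.05 in control shRNA cells, and the medians of the mTOR list (-0.42 and -0.43) and of the chaperone and ligase list (-0.64 and -0.55) lie below it.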

How the data were processed

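RNA of MDA-MB231 cells in 4 conditions was measured on 1 Affymetrix human genome array each. The authors deposited signal intensities on a linear scale, made with MAS5 per the labels (version and settings not given in the sources used here), and the 3′ to 5′ ratios were computed from the control probe sets. By the gene table of the platform, 19070 probe sets list 1 gene, 1043 several and 2164 none. The RefSeq gene table of GRCh38.p14 matched the Entrez identifiers of 11954 genes and updated 0 symbols. Its positions are those of that assembly, not of the array design. Where a gene had several probe sets, that of the highest mean log2 signal stood for it. Of the ribosomal protein genes, 13 were read from a plain _at probe set, 29 from an _s_at set and 14 from an _x_at set. The suffixes _s_at and _x_at mark sets that can match more than 1 transcript.

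Signals were raised to a floor of 198, the highest over the arrays of the 75th percentile over 81 probe sets, which read 53 genes restricted to other tissues. Ratios are log2 differences of these signals, and a gene counts as tested where at least 1 of its 2 signals is above the floor. With 1 array per condition no test was run; counts past a log2 ratio of 0.32 in size and past 2-fold are set beside those of all genes. The depth of an array has no count, and the number of arrays limits the precision.

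The genes named are the 4 highest and 4 lowest ratios of each comparison, the 3 brightest and 3 dimmest, the other forms with their main form, the stalk and 5S particle genes, those with probe sets over 0.5 apart, and PIAS1; others were named after their values were seen. The members and lists were chosen with earlier results of these data known. Alternatives were other floors, scalings and ways to join probe sets, leaving out the other forms, and, chosen after seeing the data, the brightest 10% only. The steps were tested on simulated data. Python 3.11.15, NumPy 2.4.6, pandas 2.3.3 and matplotlib 3.10.9 were used.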

Additional observations from a re-analysis of the deposited data

Results flagged for a closer look

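Each ratio below stands on a further probe set that was not used for the gene, and no difference among them was tested. For RPL18, the hairpin ratio of a probe set with a mean signal of 1358 was -0.93 in SCM and 0.87 in DMEM, opposite in the 2 media and -1.80 apart, and its ratio of SCM over DMEM in control shRNA cells was 1.33. The probe set used for RPL18, at 57503, gave 0.03 in SCM and 0.18 in DMEM. For RPL31, a probe set at 1026 gave hairpin ratios of 0.31 in SCM and -0.34 in DMEM, 0.65 apart, and was higher in SCM in PIAS1 shRNA2 cells at 1.04, while another at 2010 was higher in SCM in control shRNA cells at 1.01. For RPS28, a probe set at 762 gave -1.04 between hairpins in SCM and 0.01 in DMEM, -1.06 apart, and -1.38 for SCM over DMEM in PIAS1 shRNA2 cells. For RPL22, a probe set at 11176 gave -0.30 in SCM and 0.14 in DMEM, -0.44 apart, and for RPS21 one at 3512 gave -0.15 and 0.24, -0.39 apart.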

How the results depend on the processing

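A median or the ratio of a gene was read as the same if it lay within 1 SD within a gene, given above, of the main value. A count was the same if equal or within a set factor. Of 110 values for the ribosomal protein genes as a group under the alternatives, 78 were the same and 32 moved. A median could thus cross 0 and be read as the same, as that of SCM over DMEM in control shRNA cells did with a common array median. An additive fit of hairpin and medium over the 4 arrays, with the difference between the media as its error, was not run. Between hairpins in SCM, the genes called higher were 0 with the mean of a gene's probe sets, with plain _at probe sets only and in the brightest 10% only; those lower were 2 with the mean, 6 with every probe set counted, 4 with plain _at probe sets, and 0 without the other forms or in the brightest 10%. In DMEM the higher genes were 0 with the mean, 4 with every probe set, 0 with plain _at probe sets and 0 in the brightest 10%; the lower were 1 with the floor at the array median, 5 with every probe set, and 0 without the other forms or in the brightest 10%; the median was -0.021 after quantile normalization. For SCM over DMEM in PIAS1 shRNA2 cells, the higher genes were 1 with no floor, 1 with the mean, 3 with every probe set and 1 with plain _at probe sets, and the lower 11 with every probe set, 2 without the other forms and 1 in the brightest 10%. In control shRNA cells the higher were 3 with the mean, 6 with every probe set and 2 with plain _at probe sets, the lower 7 with every probe set, 1 without the other forms and 0 in the brightest 10%, and the median was -0.050 after quantile normalization. The hairpin ratio was lower in SCM than in DMEM for 22 of 55 genes after quantile normalization. Of 884 values for single named genes, 801 were the same and 83 moved. Divided instead by the call, the sign turned in 0 of 83 values of called ratios, and in 59 of 801 values of ratios not called, up to RPL14 at -0.30 between hairpins in SCM (0.01 with plain _at probe sets). Of these 59, RPS28 in SCM was -0.25 with the mean of its probe sets and -1.04 with plain _at probe sets, against 0.05, RPL18 in SCM was -0.49 with the mean, against 0.03, and RPS21 for SCM over DMEM in PIAS1 shRNA2 cells was -0.30 and -0.87, against 0.26. A ratio that fell to 0 was not counted as turned, as for RPLP2 in SCM with plain _at probe sets and RPL10L in DMEM with the floor at the array median. RPL39L, RPL26L1, RPL10L and RPL27A, which hold many of the called ratios, have 1 probe set each. The ways to join probe sets could not change these, so the 0 turned values are in part fixed in advance. The causes were not tested. A signal near the floor, as for RPL10L, limits what can be read.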
